A study of Rattus norvegicus with 10 samples.

Results

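Immediate early transcription factors were followed in 10 rat lacrimal glands through the probe sets of 8 genes: Fos, Fosl1, Jun, Junb, Egr1, Atf3, Nr4a1 and Btg2. Members were taken by the gene symbol in the array's platform annotation. They were found for 7 of the 8 genes (of 4736 symbols named alone on the array), with 17 of the 8799 probe sets on the array: 3 for Fos, 4 for Jun, 4 for Egr1, 2 for Junb, 2 for Nr4a1, 1 for Fosl1 and 1 for Atf3. No listed probe set carries the symbol Btg2, a growth-arrest gene of the same early response, and it was not analysed here. A filter on dim probe sets left 16 of the 17 in the tests, the Fosl1 probe set being the one outside.

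The denervated glands, 5 in all, were removed 7 days after cutting the greater superficial petrosal nerve, which brings parasympathetic fibres to the lacrimal gland. The 5 control glands were 3 contralateral glands from the same time point, 1 gland taken 7 days after a sham operation and 1 gland of an unoperated animal. The 3 are contralateral by their titles, which were followed, but lie on the experimental side by their descriptions. The labels give no strain, sex or age, and do not say which glands came from the same animal, so p-values measure the spread between these glands only. Each gland gave 1 array, and values are linear probe set intensities, comparable between glands for 1 probe set but not from one probe set to another.

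Immediate early genes are switched on within minutes of a stimulus, without new protein synthesis. Calcium, cyclic AMP and MAP kinase signals reach transcription factors already bound at their promoters, the serum response factor with its partners and CREB, and the transcripts decay quickly afterwards. Fos and Fosl1 pair with Jun or Junb to form the AP-1 factor, Egr1 is a zinc finger factor, Nr4a1 an orphan nuclear receptor and Atf3 a stress-induced member of the ATF/CREB family. In secretory glands they respond to secretagogues, growth factors and injury, and in any tissue to handling during removal.

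Over the arrays, median intensity ran from 554 to 979 and correlations of log2 intensity across probe sets from 0.715 to 0.912. The arrays of denervated 1, contralateral 1 and sham stood apart: they correlated at 0.851 to 0.898 with each other and at 0.715 to 0.821 with the other 7. The other 7 were not uniform, correlating with each other at 0.752 to 0.912, a range that overlaps the second. The lowest median correlation with the other arrays was that of denervated 5 (0.755), which is not one of the 3. GAPDH control probes gave a log2 3'/5' ratio of -0.18, -0.58 and -0.64 in these 3 arrays, against 0.0081 to 0.353 in the other 7. Actin ratios did not set them apart (0.95, 0.91 and 0.61, against 0.19 to 1.14), nor did hexokinase ratios (-1.33, 2.38 and -0.065, against -0.23 to 1.81). The water channel Aqp5, a marker of lacrimal and salivary acinar cells alike, had a mean log2 intensity of 13.59 in denervated and 13.36 in control glands at U16245_g_at. Of 11 tested markers in its list 7 had a lower mean in denervated glands, with a median log2 difference of -0.53. Of 4 markers of the neighbouring parotid gland on the array, 1 passed the filter on dim probe sets. Bpifa2 was at the floor of 156.2 in 5 glands and Prb1 in 8. The summed intensity of the 4 was 3396 in the sham gland, against 971.7 to 1988 in the other glands.

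The 3 Fos probe sets gave different answers. The probe set X03347cds_g_at had intensities of 1057, 4974, 2862, 5921 and 1181 in denervated glands 1 to 5, against 352, 746 and 843 in contralateral glands 1 to 3, 390.4 in the sham gland and 837 in the unoperated gland. Every denervated gland lay above every control gland. Groups were separated in this direction for 1 of the 16 and for 0.637% of all tested probe sets, and in the other direction for 0 of the 16 and for 1.03% of all. Log2 intensity averaged 11.31 ± 1.15 in denervated and 9.21 ± 0.62 in control glands (SD, n = 5 each), so that the denervated level was 4.29-fold higher. The log2 difference of 2.10 ± 0.53 (SE; 95% confidence interval 0.96 to 3.24) had an unadjusted p of 0.00139 and did not pass over all probe sets (limma adjusted p = 0.434). It passed in 1 of 21 alternative fits, without denervated 1 (2.42, limma adjusted p = 0.0463). In that fit 70 of 6118 probe sets passed, against 0 in the main fit. Over all 21 the limma adjusted p ran from 0.0463 to 0.763.

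The other Fos probe sets, both named for 1 rat Fos sequence, had overlapping groups. X06769cds_g_at had intensities of 1508, 9409, 3826, 7292 and 695 in denervated glands 1 to 5, against 3293, 2567 and 1194 in contralateral glands 1 to 3, 5229.7 in the sham gland and 1864 in the unoperated gland. Its log2 difference was 0.30 ± 0.63 (SE; interval -1.06 to 1.65; limma adjusted p = 0.896). X06769cds_at had 801, 2218, 853, 3841 and 219 in denervated glands, against 396, 1069.7 and 453 in contralateral glands, 2031 in the sham gland and 626 in the unoperated gland. Its log2 difference was 0.48 ± 0.71 (SE; interval -1.04 to 2.00; limma adjusted p = 0.847). All 3 probe sets placed denervated 2 and denervated 4 as the 2 highest glands of 10, as did 2 Egr1 probe sets and 2.22% of all tested. They parted at denervated 5, which was the lowest of all glands at both X06769 probe sets and above all control glands at X03347cds_g_at, and at the sham gland, which was high at both X06769 probe sets and next to lowest at X03347cds_g_at.

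The platform annotation pairs X03347cds_g_at with another source sequence than the one in its name. Such a mismatch occurs in 96 of 7326 listed probe sets (1.31%) and in 2 of the 17 described here, the other being the Egr1 probe set U75398_s_at. Within the 3 arrays that stand apart, the log2 level of X03347cds_g_at in denervated 1 was 1.51 above the mean of contralateral 1 and sham. Among denervated 3 and 4, contralateral 2 and 3 and the unoperated gland, the denervated mean was higher by 2.35. For X06769cds_g_at the same within-set differences were -1.46 and 1.56, and so of opposite sign.

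**Figure D1:**
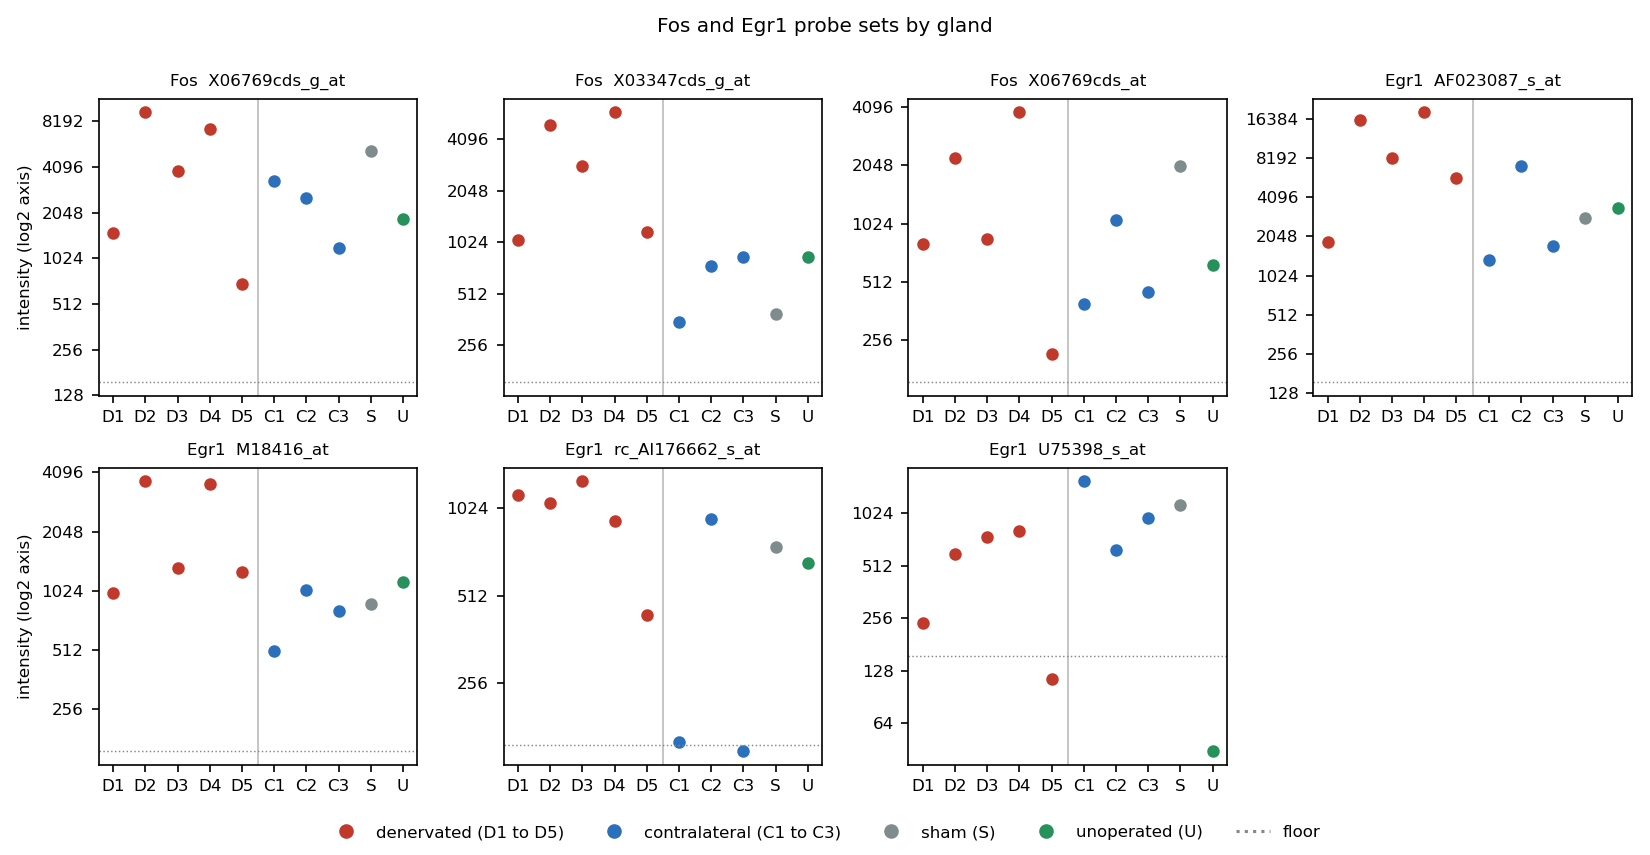
Intensity (log2 axis) of the 3 Fos and 4 Egr1 probe sets in each gland, 1 point per gland, with denervated glands left of the grey line and control glands right of it. The dotted line is the floor of 156.2. Denervated 2 and 4 are the 2 highest glands in 5 of the 7 panels, and X03347cds_g_at alone has every denervated gland above every control gland.

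Egr1 was higher on average in denervated glands at 3 of its 4 probe sets. The probe set AF023087_s_at had intensities of 1872, 16019, 8240.3, 18408 and 5738 in denervated glands 1 to 5, against 1349.9, 7081 and 1732 in contralateral glands 1 to 3, 2839.8 in the sham gland and 3403 in the unoperated gland. Denervated 2, 3 and 4 lay above all control glands, denervated 5 was below contralateral 2, and denervated 1 was among the low control glands. Log2 intensity averaged 12.90 ± 1.33 in denervated and 11.43 ± 0.93 in control glands (SD, n = 5 each), a log2 difference of 1.47 ± 0.58 (SE; limma unadjusted p = 0.0229, adjusted p = 0.451). M18416_at had 999.9, 3695, 1330.2, 3579 and 1280.1 in denervated glands, against 504, 1029 and 805 in contralateral glands, 874 in the sham gland and 1131 in the unoperated gland. Here 4 of 5 denervated glands lay above all controls, and the log2 difference was 1.15 ± 0.45 (SE; limma unadjusted p = 0.0221, adjusted p = 0.451).

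The Egr1 probe set rc_AI176662_s_at had intensities of 1139.8, 1072, 1272, 924 and 438 in denervated glands 1 to 5, against 159.5, 943 and 149 in contralateral glands 1 to 3, 751 in the sham gland and 664 in the unoperated gland. Denervated 1, 2 and 3 lay above all controls, and contralateral 1 and 3 were just above or below the floor, which limits how low they could be measured. The log2 difference was 1.15 ± 0.61 (SE; limma adjusted p = 0.561). U75398_s_at ran the other way, with 241, 597, 744, 807 and 115 in denervated glands, against 1563, 628 and 962 in contralateral glands, 1135 in the sham gland and 44.3 in the unoperated gland. No denervated gland was above the control median there, while denervated 5 and the unoperated gland were both below the floor. Its log2 difference was -0.73 ± 0.69 (SE; limma adjusted p = 0.744), and it was 0.096 without the 3 arrays that stand apart.

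Within those 3 arrays, denervated 1 differed from the mean of contralateral 1 and sham by -0.065 on the log2 scale at the Egr1 probe set AF023087_s_at and by 0.59 at M18416_at. Among the 5 glands named above for the second set, denervated glands were higher by 1.83 and 1.16. Denervated 2 and 5 were taken as another set, without a control gland, and no measure that separates them from those 5 glands is given here. The titles name no batch, and the sets were chosen with earlier results of these data known. With the 3 sets in the fit as a block, the Egr1 differences were 1.15 and 0.95, and that of the Fos probe set X03347cds_g_at was 2.05, with limma adjusted p from 0.456 to 0.824. Denervated 2 and 5, having no control gland in their set, do not enter the differences of that fit.

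Promoter sequences are shown for Egr1, Junb and Nr4a1, whose highest glands differed: denervated 2 or 4 for Egr1 at AF023087_s_at and M18416_at, the unoperated gland for Junb, and contralateral 2 for Nr4a1. Each is the 250 bases before the transcript start, from RefSeq's GRCr8 rat assembly. Of the 8 genes 5 were matched to a promoter, and those of Fos, Jun and Atf3 were not used here. They were searched on both strands for the CArG box bound by serum response factor, for the cyclic AMP response element TGACGTCA and its core TGACG, which overlap, the AP-1 site TGANTCA, the EGR site GCGTGGGCG, the NR4A site AAAGGTCA, TATAAA and CCAAT. Capitals mark every match, a core on the other strand reading CGTCA.
Egr1, chr18:26736828-26737077, plus strand: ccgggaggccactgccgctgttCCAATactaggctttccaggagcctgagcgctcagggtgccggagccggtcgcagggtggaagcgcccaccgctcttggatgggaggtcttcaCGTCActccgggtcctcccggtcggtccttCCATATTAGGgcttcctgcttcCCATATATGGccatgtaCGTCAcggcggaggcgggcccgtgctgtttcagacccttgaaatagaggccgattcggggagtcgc
Junb, chr19:40080876-40081125, plus strand: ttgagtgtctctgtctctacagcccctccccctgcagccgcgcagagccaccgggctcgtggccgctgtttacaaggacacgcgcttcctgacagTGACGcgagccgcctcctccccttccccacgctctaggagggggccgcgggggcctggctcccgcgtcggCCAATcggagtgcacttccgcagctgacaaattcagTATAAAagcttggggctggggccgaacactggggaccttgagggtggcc
Nr4a1, chr7:134259888-134260137, plus strand: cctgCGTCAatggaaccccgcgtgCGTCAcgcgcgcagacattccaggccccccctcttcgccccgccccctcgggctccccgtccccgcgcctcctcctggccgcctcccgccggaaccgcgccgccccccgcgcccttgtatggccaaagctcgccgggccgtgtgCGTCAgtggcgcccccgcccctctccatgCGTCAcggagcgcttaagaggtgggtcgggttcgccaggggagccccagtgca
The Egr1 window held 2 CArG boxes, at positions -105 to -96 and -83 to -74 from the start, 2 core elements TGACG and 1 CCAAT. CArG boxes were found in 1.5% of 33469 windows of this length. The Junb window held 1 TGACG, 1 CCAAT and 1 TATAAA, and the Nr4a1 window 4 core elements. The core was found in 18.2% of windows, CCAAT in 34% and TATAAA in 12.9%. These matches describe letters in a window and carry no measurement of binding.

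Over the 16 tested probe sets, 10 had a higher and 6 a lower mean in denervated than in control glands, with a median log2 difference of 0.34. Over all 6118 tested probe sets 44.6% had a higher mean, and the median was -0.079. By limma 0 of the 16 passed at an adjusted p under 0.05, and 0 of 6118 did (0% called). At an unadjusted p under 0.05, 3 of the 16 were higher and 0 lower, X03347cds_g_at of Fos and AF023087_s_at and M18416_at of Egr1, against 5.02% higher and 4.66% lower over all probe sets. The 16 are not independent, since probe sets of 1 gene share a transcript.

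Against the 3 contralateral glands alone, 12 of the 16 had a higher mean in denervated glands, with a median of 0.46, where 49.5% of all tested probe sets had a higher mean and the median was -0.0069. Again 0 passed by limma, here as over all probe sets (0% called). At an unadjusted p under 0.05, 4 were higher and 0 lower, where 4.15% of all tested probe sets were higher and 3.01% lower. They were X03347cds_g_at of Fos (2.07 ± 0.64, SE) and 3 probe sets of Egr1, rc_AI176662_s_at (1.67 ± 0.67), AF023087_s_at (1.58 ± 0.69) and M18416_at (1.32 ± 0.53), with limma adjusted p of 0.634 to 0.677. This comparison uses the same denervated glands and 3 of the same control glands as the one before it.

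**Figure D2:**
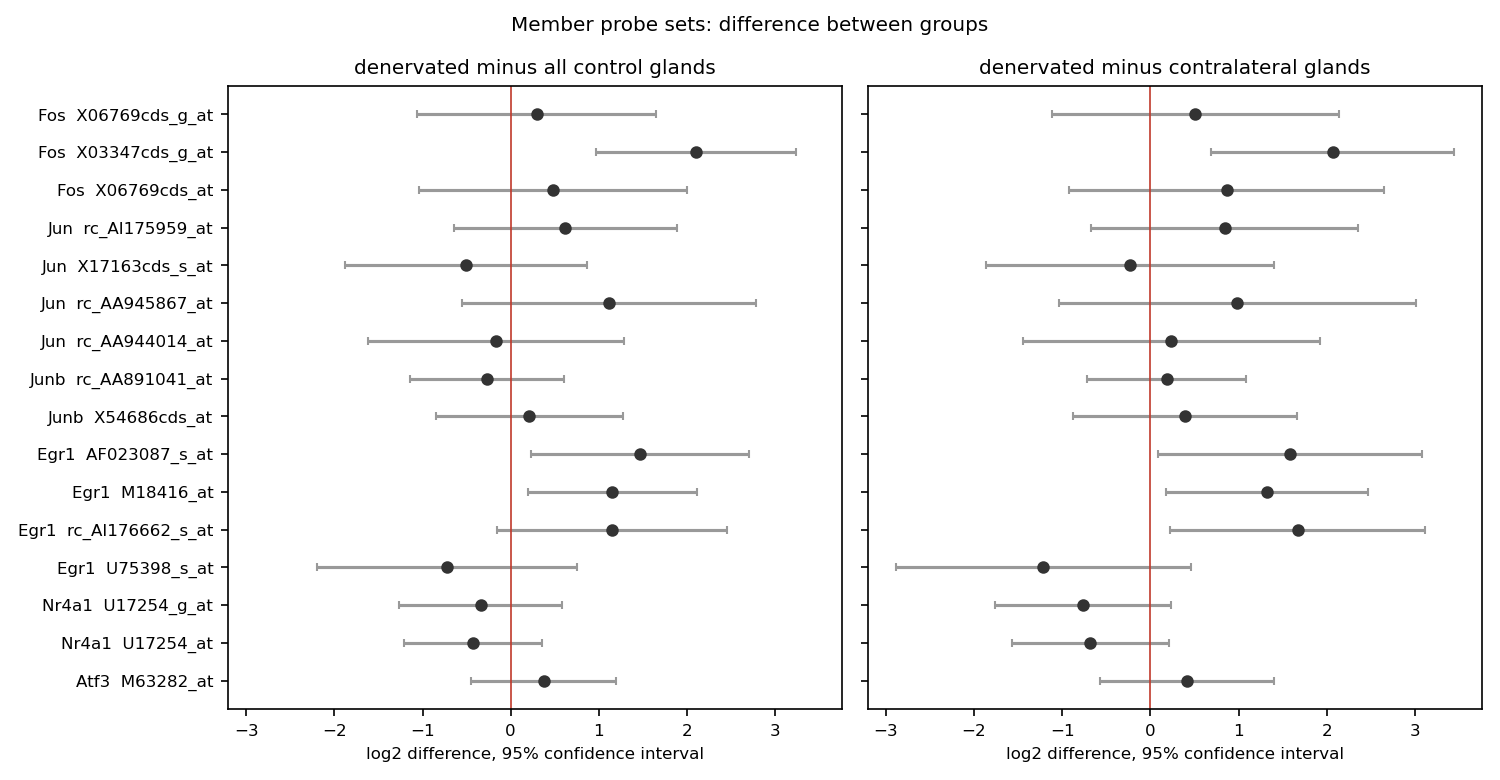
Log2 difference of the 16 tested probe sets, with points for limma's estimate and bars for its 95% confidence interval, denervated minus all control glands on the left and denervated minus contralateral glands on the right. The interval lies above 0 for 3 probe sets on the left and 4 on the right, all of Fos or Egr1, and no probe set passed after adjustment.

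Jun and Junb, the partners of Fos in AP-1, were highest in the unoperated gland at all 6 of their probe sets, while 9.12% of tested probe sets were highest in that gland. The Jun probe set rc_AI175959_at had intensities of 1526, 7776, 5436, 7981 and 7586 in denervated glands 1 to 5, against 1302, 3140.5 and 6055 in contralateral glands 1 to 3, 1599 in the sham gland and 11483 in the unoperated gland. It was low in denervated 1, contralateral 1 and sham, which are the 3 arrays that stand apart. At rc_AA945867_at of Jun these 3 had 639.8, 664 and 188, against 1241 to 5421 in the other 7 glands. At X54686cds_at of Junb they had 912, 1168 and 1101, against 1430.0 to 5017. These 3 probe sets are 3 of 16 with the 3 arrays below all others, a pattern found in 4.46% of tested probe sets.

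None of the 4 Jun probe sets passed the test between denervated and control glands, and their directions were mixed. The log2 differences were 1.12 ± 0.78 (SE; interval -0.55 to 2.79) at rc_AA945867_at, 0.62 ± 0.59 (interval -0.64 to 1.88) at rc_AI175959_at, -0.16 ± 0.68 at rc_AA944014_at and -0.50 ± 0.64 at X17163cds_s_at. In the fit with the 3 sets as a block the Jun differences were 0.43 at rc_AA945867_at, 0.11 at rc_AI175959_at, -0.65 at rc_AA944014_at and -1.26 at X17163cds_s_at. The last of these had an unadjusted p of 0.0222 and a limma adjusted p of 0.792. At rc_AA944014_at of Jun, denervated 3 and contralateral 2 were at the floor. At X17163cds_s_at of Jun, denervated 1 had an intensity of 211, against 1874 to 3688 in the other denervated glands and 1232 to 3833 in control glands, and without it the difference was 0.20.

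The 2 Junb probe sets had log2 differences of opposite sign, 0.21 ± 0.50 (SE; interval -0.85 to 1.27) at X54686cds_at and -0.27 ± 0.41 (interval -1.14 to 0.60) at rc_AA891041_at. Intensities of rc_AA891041_at ran from 1057 to 3521 in denervated glands, with a median of 2439, and from 1805 to 6329 in control glands, with a median of 2489. At X54686cds_at denervated 2, 3 and 4 had 3465, 3714 and 3434, above all control glands but the unoperated one, with 5017. Denervated 1 and 5, with 912 and 1430.0, were in the low part of the range.

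**Figure D3:**
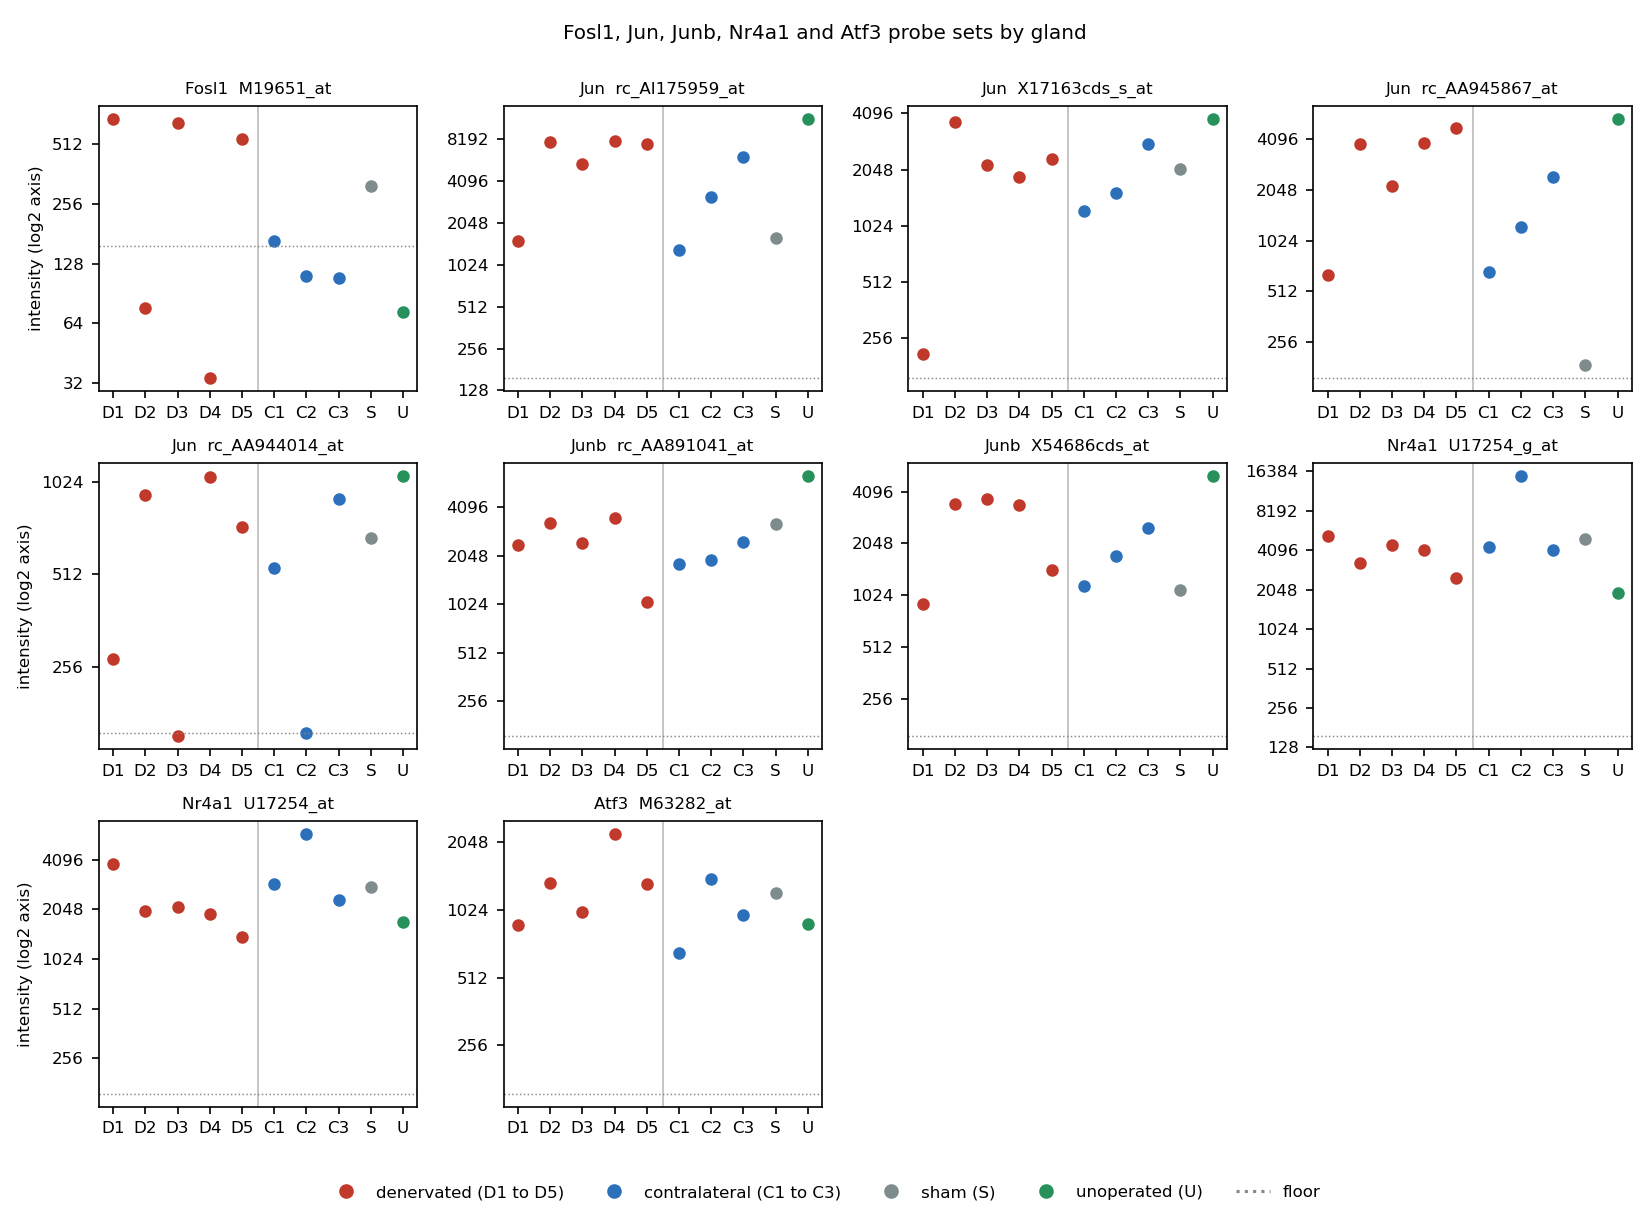
Intensity (log2 axis) of the Fosl1, Jun, Junb, Nr4a1 and Atf3 probe sets in each gland, 1 point per gland, with denervated glands left of the grey line and control glands right of it. The dotted line is the floor of 156.2. The unoperated gland is the highest in all 6 Jun and Junb panels, and contralateral 2 in both Nr4a1 panels.

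Nr4a1, which also carries the name Nur77, had its highest intensity in contralateral 2 at both probe sets. At U17254_g_at the denervated glands 1 to 5 had 5263, 3271, 4459, 4089 and 2495, against 4307, 14993 and 4149 in contralateral glands 1 to 3, 4963 in the sham gland and 1923 in the unoperated gland. At U17254_at they had 3867, 2017, 2119, 1930.0 and 1389, against 2912, 5870 and 2343 in contralateral glands, 2815 in the sham gland and 1715 in the unoperated gland. The log2 differences from all control glands were -0.34 ± 0.43 and -0.43 ± 0.36 (SE; limma adjusted p of 0.813 and 0.723). Against contralateral glands alone they were -0.77 ± 0.46 and -0.68 ± 0.41 (limma adjusted p = 0.750 for both). Without contralateral 2 these were -0.16 and -0.29.

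Atf3 varied least of the 17 in its range over glands, 3.39-fold between the highest and the lowest. Its intensities were 877, 1355, 1004, 2225 and 1329.7 in denervated glands 1 to 5, against 657, 1403 and 974 in contralateral glands 1 to 3, 1217 in the sham gland and 885 in the unoperated gland. The log2 difference was 0.37 ± 0.38 (SE; interval -0.45 to 1.19; limma adjusted p = 0.765). Only denervated 4 lay above all controls, the gland that was also highest for Fos at X03347cds_g_at and X06769cds_at and for Egr1 at AF023087_s_at.

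Fosl1, also called Fra-1, was split among the denervated glands. Denervated 1, 3 and 5 had intensities of 686, 657 and 544, and denervated 2 and 4 had 76.5 and 33.8, below the floor of 156.2. Control glands had 166.3, 110.5 and 108 in contralateral glands 1 to 3, 314 in the sham gland and 72.7 in the unoperated gland. Denervated 2 and 4, highest for Fos, were thus below the floor for Fosl1, as were contralateral 2 and 3 and the unoperated gland. In the fit with no filter its log2 difference was 0.98 ± 0.49 (SE; limma adjusted p = 0.625), with 2 denervated and 3 control glands at the floor.

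**Figure D4:**
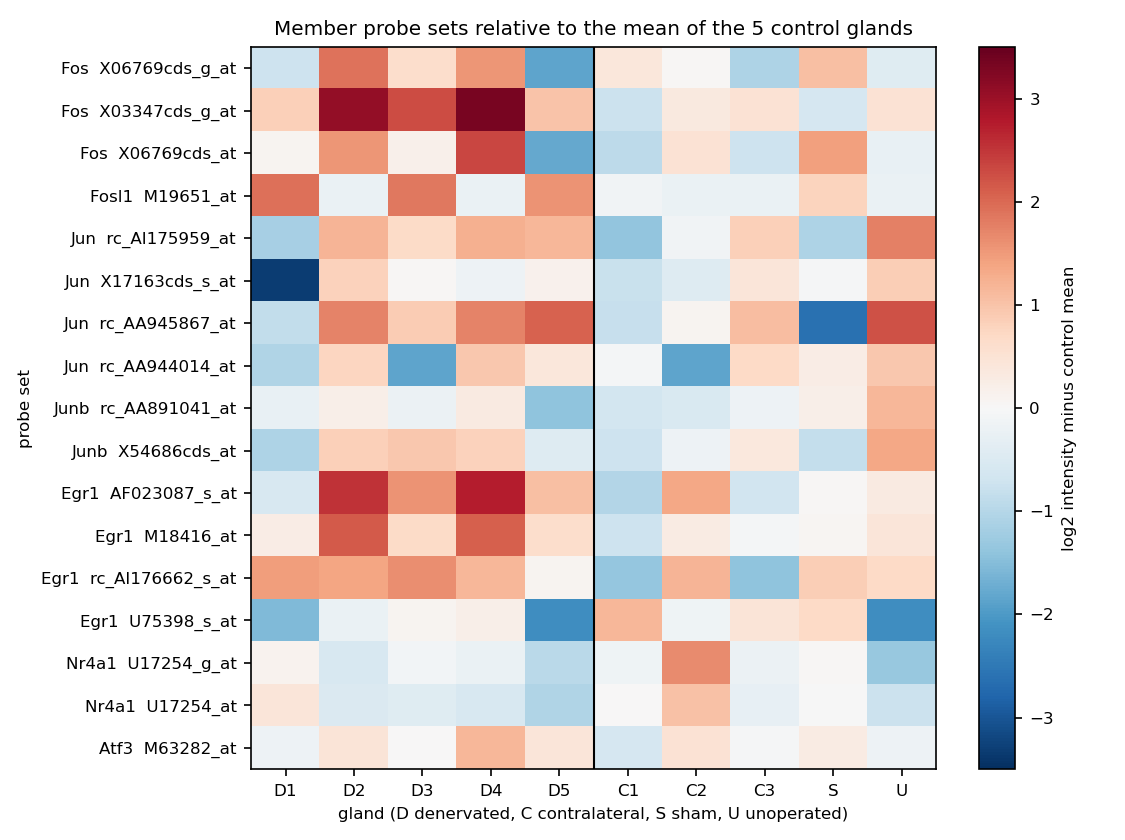
Log2 intensity of the 17 probe sets in each gland minus the mean of the 5 control glands, red for higher and blue for lower, denervated glands left of the black line. Denervated 2 and 4 are the reddest columns for Fos and, at AF023087_s_at and M18416_at, for Egr1, the unoperated gland for Jun and Junb, and probe sets of 1 gene differ in the remaining glands.

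Contralateral glands, so called by their titles, were also compared with the unoperated and sham glands taken as 1 class of glands without nerve section. The sham gland is itself from an operated animal, and the descriptions place the contralateral glands on the experimental side. Of the 16 probe sets 5 had a higher and 11 a lower mean in contralateral glands, where 40.3% of all tested had a higher one, with a median log2 difference of -0.43, against -0.15 over all tested probe sets. By limma 0 passed (0% of all called), and at an unadjusted p under 0.05 0 were higher and 1 lower, where 1.52% and 3.37% of all probe sets were. That one was rc_AA891041_at of Junb, with 1805, 1926 and 2489 in contralateral glands, against 6329 in the unoperated and 3222 in the sham gland (log2 difference -1.14 ± 0.52, SE; limma adjusted p = 0.967). For Jun at rc_AA945867_at the unoperated and sham glands had 5421 and 188, so the 2 glands of this class lay at opposite ends of the range.

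Other genes of the early response had differences in both directions, counted here at the probe set of highest mean for each gene. Of 6 tested genes of the AP-1 and ATF/CREB families 3 were higher and 3 lower in mean in denervated glands, with a median log2 difference of 0.048, against -0.080 over all 3621 genes tested. Atf2 differed by 1.08 ± 0.56 (SE), the cyclic AMP-induced repressor gene Crem by -1.22 ± 0.79, and Fosl2 by -0.73 ± 0.66 and -0.24 ± 0.82 at its probe sets. Jund was under the filter, at the floor in 8 glands. Of 8 EGR, NR4A and KLF relatives 4 were higher and 4 lower (median 0.12), among them Klf6 (0.92 ± 0.59), Klf4 (0.43 ± 0.30), Egr2 (0.46 ± 0.55) and Nr4a2 (-0.65 ± 0.62 and -0.32 ± 0.67). In both lists 0 genes passed by limma, and 0 had an unadjusted p under 0.05.

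Of 22 other early response genes 13 were higher and 9 lower, with a median of 0.19. By limma 0 passed, and 2 had an unadjusted p under 0.05, both higher, 9.09% against 5.03% higher over all genes. They were Cebpb, a bZIP factor of the acute response (1.01 ± 0.36), and the Notch target Hes1 (1.09 ± 0.44), and the kinase gene Sgk1 followed with 1.44 ± 0.68 (unadjusted p = 0.0513). Feedback inhibitors, which switch the response off, were listed with mRNA decay factors and other genes such as Gadd45a. This list gave 5 higher and 4 lower of 9 (median 0.31), with 0 at an unadjusted p under 0.05 by limma. Another probe set of Gadd45a, L32591mRNA_g_at, had 1.70 ± 0.60 (unadjusted p = 0.013), against -0.088 ± 0.48 at the one counted. The phosphatase genes Dusp6 and Dusp1 differed by 0.77 ± 0.46 and by 0.76 ± 0.65, 0.66 ± 0.52 and 0.33 ± 0.82 at 3 Dusp1 probe sets. Rgs1 differed by 0.76 ± 0.60, and the mRNA decay factors Zfp36l1 by 0.32 ± 0.24 and Zfp36 by 0.31 ± 0.37 and -0.47 ± 0.30. Upstream kinases and factors gave 6 higher and 7 lower of 13 (median -0.074), with 0 at an unadjusted p under 0.05. Probe sets that were not counted had lower values for Map2k1 (-1.32 ± 0.56 at rc_AI178835_at, unadjusted p = 0.0342) and Mapk14 (-1.29 ± 0.53 at U73142_at, unadjusted p = 0.0279). Here Map2k6 differed by -1.0 ± 0.51, Egfr by -0.78 ± 0.51 and Mapk8 by 0.90 ± 0.62.

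Genes known as targets of AP-1 or EGR1 in other settings had a higher mean in denervated glands for 16 of 19, with a median of 0.57, where 44.4% of all genes tested had a higher mean. By limma 0 passed, and 4 had an unadjusted p under 0.05, all of them higher (21.1% against 5.03% over all genes). They were Fn1, fibronectin (1.46 ± 0.56, SE), Vim, vimentin (1.11 ± 0.50, named after its value was seen), Mmp2, a matrix protease (1.04 ± 0.42), and Ezr, ezrin (0.86 ± 0.32). Odc1, ornithine decarboxylase, counted at J04792_at (0.47 ± 0.64), was lower at J04791_s_at (-1.10 ± 0.33), whose unadjusted p of 0.00537 was the smallest of any probe set in the list. A probe set of Ccnd1 that was not counted, X75207_s_at, had 1.19 ± 0.50 (unadjusted p = 0.0307). Odc1, Ccnd1, Gadd45a, Map2k1 and Mapk14 were named after their values were seen. Fn1, Vim and Mmp2 are also genes of fibroblasts. Ezr had log2 intensities of 11.39, 12.91, 12.56, 12.99 and 12.64 in denervated glands 1 to 5, against 11.30, 12.13 and 11.40 in contralateral glands, 11.34 in the sham gland and 11.99 in the unoperated gland.

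**Figure D5:**
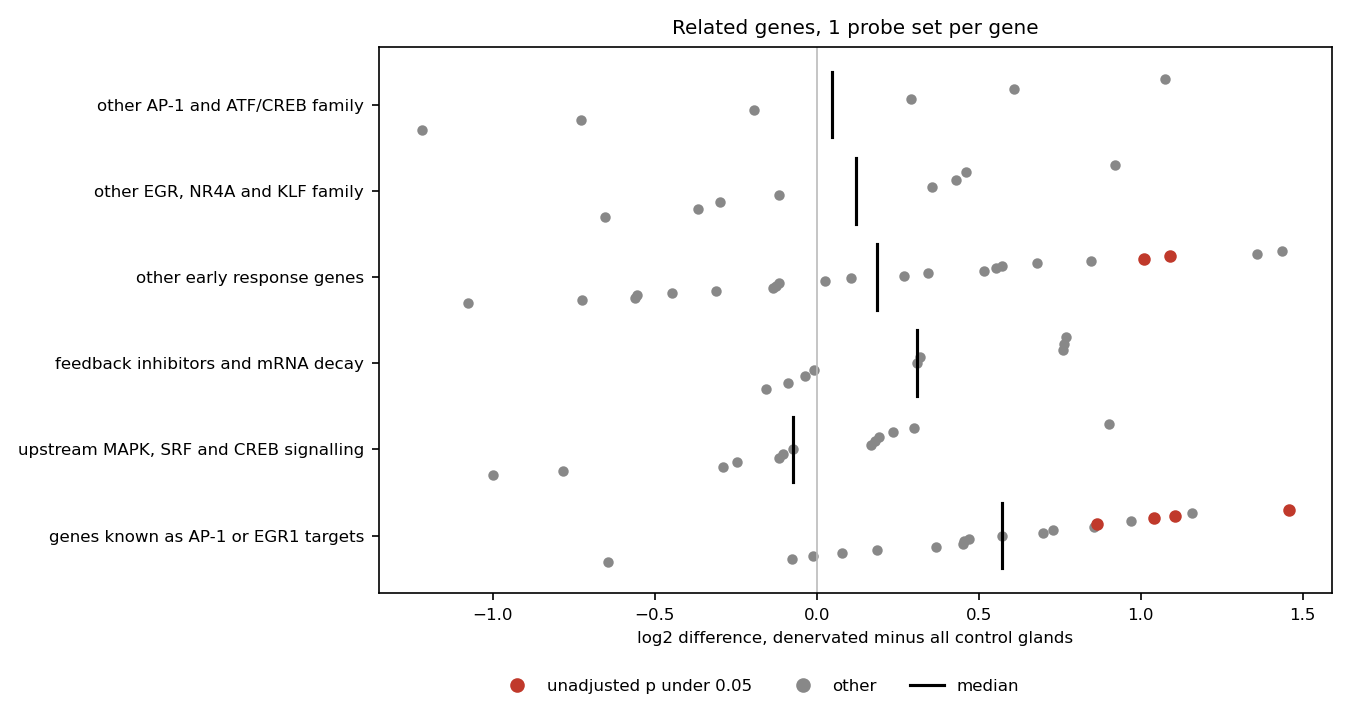
Log2 difference, denervated minus all control glands, of the genes in 6 related lists, 1 point per gene at its probe set of highest mean and a black bar for each list's median. Red points had an unadjusted p under 0.05. They lie in the early response list (2 genes) and the target list (4 genes), and no gene passed after adjustment.

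Mean levels of markers of other cell types also differed between the groups, in both directions. In bulk tissue, more cells of a type and more RNA per cell cannot be told apart. Counts below cover tested genes, while sums add linear intensity over all listed genes on the array, 1 probe set per gene. Tested genes were 10 of 11 on the array for macrophages, 4 of 6 for adipocytes, 8 of 11 for T and natural killer cells, 6 of 8 for mast cells and 4 of 7 for Schwann cells and nerve. Intensities are not comparable between probe sets, so the brightest weigh most in a sum. At an unadjusted p under 0.05, 5.03% of all genes tested were higher in denervated glands, and no listed marker passed after adjustment. All 9 tested fibroblast markers had a higher mean in denervated glands (9 of 10 listed are on the array), 6 of them at that p, with a median log2 difference of 1.35. Their summed intensity was 50189 to 588723 in denervated and 43018 to 88689 in control glands. Smooth muscle and myoepithelial markers were higher for 7 of 7, 5 of them at that p (median 1.25), with sums of 14927 to 91499 in denervated and 10968 to 32365 in control glands. Macrophage markers were higher for 8 of 10, 3 of them at that p (median 0.41), with sums of 53097 to 84957 in denervated and 38765 to 61599 in control glands. Adipocyte markers were higher for 4 of 4, 2 of them at that p (median 1.06), with sums of 9935 to 20552 in denervated and 6708 to 12721 in control glands.

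Other marker lists were lower or divided. Acinar markers of lacrimal and salivary glands were higher for 4 of 11, 2 of them at an unadjusted p under 0.05, and lower for 7, 3 of them at that p (median -0.53). Their sums were 214270 to 411276 in denervated and 199970 to 791100.0 in control glands. T and natural killer cell markers were higher for 1 of 8 (median -0.42; sums 8156 to 18090.0 in denervated and 8626 to 21235 in control glands) and endothelial markers for 1 of 5 (median -0.48; sums 2547 to 5348 in denervated and 3561 to 7198 in control glands). Erythroid markers were higher for 3 of 4 (median 0.56), with sums of 358909 and 375229 in denervated 2 and 5, 48078 to 64907 in the other denervated glands and 29433 to 178911 in control glands. Mast cell markers were higher for 3 of 6, 1 of them at an unadjusted p under 0.05 by limma (median 0.34). Their sums were 14203 and 24295 in denervated 2 and 5, 4408 to 8380 in the other denervated glands and 5612 to 9269.7 in control glands. Schwann cell and nerve markers were higher for 2 of 4, 1 of them at an unadjusted p under 0.05 by limma (median -0.093). Their sums were 4376 to 9211 in denervated and 2793.5 to 5120 in control glands. Skeletal muscle markers were higher for 3 of 6 (median 0.22). Their sums were 10342 and 17464 in denervated 3 and 4 and 13867.5 in the sham gland, against 2306.5 to 5108 in the other glands. The part of muscle in the Fos and Egr1 values was not tested. Parotid markers were higher for 0 of 1, with sums of 1124 to 1988 in denervated and 971.7 to 3396 in control glands.

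In denervated 2 and 4, the glands highest for Fos, the fibroblast sums were 232617 and 83618, against a control maximum of 88689, and the macrophage sums were 78973 and 80878, against a control maximum of 61599. Denervated 2, 3 and 5 were above all control glands for both lists, and denervated 4 for the macrophage list only. The part of these cell types in the Fos and Egr1 values was not tested.

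Profiles most like Egr1 and Fos over the 10 glands were ranked by the root mean square difference of centred log2 values among 5000 other single-symbol probe sets. Nearest to AF023087_s_at of Egr1, whose own root mean square deviation was 1.26, were Cav1 (0.535), Il33 (0.576), Ifitm3 (0.584) and Lipa (0.598), followed by the Egr1 probe set M18416_at (0.602). X03347cds_g_at of Fos ranked 24 on this list, while X06769cds_g_at ranked 719 and the Egr1 probe set U75398_s_at 3708. Nearest to X06769cds_g_at of Fos (own deviation 1.13) were X06769cds_at of Fos (0.616), Ptafr (0.660), Ift25 (0.673), Defb1 (0.681) and Nthl1 (0.694), and X03347cds_g_at ranked 2362. The difference of X03347cds_g_at from AF023087_s_at of Egr1 was 0.711, and from X06769cds_g_at of Fos it was 1.31.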

How the data were processed

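Total RNA of each gland was hybridised to 1 Affymetrix rat array. The deposited table holds linear probe set intensities, which the authors had scaled, as the values show: with 2% trimmed at each end, array means differed by 0.0360% of their mean. Neither the software nor detection calls are given in the sources used here. The scaling was kept, a floor was set at the 20th percentile (156.2), and log2 was taken. The 59 array controls were left out, and of 8740 others the 6118 with a mean above the 30th percentile were tested. Symbols came from the platform annotation (7006 probe sets with 1 symbol, 308 with several, 1426 unlisted).

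Differences were tested with limma 3.58.1 in R 4.3.3 (lmFit, eBayes with trend), and two-sided p-values were adjusted over all 6118 by Benjamini-Hochberg. Denervated against all control glands was a fit of 2 classes, and the other contrasts came from a fit of 3 classes (denervated, contralateral, unoperated with sham). The median standard error of the first log2 difference was 0.50, and precision is limited by having 10 arrays. The steps were tested on simulated data, with 200 changes placed in probe sets well above the floor. Noise was drawn independently for each probe set and array, so the simulated arrays lacked the sets seen in the real ones. There 17% of 2-fold and 66% of 4-fold changes between denervated and all control glands were recovered, and 6% of calls were false. Most 2-fold changes were thus missed in that setting, and the rates may differ in these glands.

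All members are described. In each related list the 3 genes with the smallest p, and 7 fixed genes where listed, are named, and the 5 nearest profiles are given for the Fos and the Egr1 probe set of highest mean. Members and lists, with the sets of arrays used as a block, were chosen with earlier results of these data known. Alternatives were scaling, floor, filter, trend, array weights, blocks and leaving out glands. Figures were drawn with matplotlib 3.10.9.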

Additional observations from a re-analysis of the deposited data

Results flagged for a closer look

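Of 34 groups of 5 glands examined for a gland far from the others, 3 held one, and chance alone gives about 1 in 20. At Fosl1 M19651_at the sham gland had a log2 intensity of 8.30, against 7.29 to 7.38 in the other control glands, 3 of which were at the floor. At the Jun probe sets rc_AI175959_at and X17163cds_s_at denervated 1 was the low gland, with 10.6 and 7.72, against 12.41 to 12.96 and 10.87 to 11.85 in the other denervated glands. Both glands belong to the 3 arrays that stand apart.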

How the results depend on the processing

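Each result was refitted under 21 alternatives, 20 for the probe sets rc_AA944014_at of Jun and U75398_s_at of Egr1, which fell under the stricter filter. Counts of called probe sets, 0 in each comparison, changed as follows. For denervated against all control glands the count was 1 with the 3 sets as a block, and 0 to 70 leaving out each gland, the 70 being without denervated 1. For denervated against contralateral glands it was 1 without a variance trend and 1 with array weights. For contralateral against unoperated and sham glands it was 7 with no filter, and 0 to 1 leaving out each gland, the 1 being without the unoperated gland. The cause of these changes was not tested. At an unadjusted p under 0.05 the first comparison had 592 by limma, and 382 with the sets as a block. In that comparison 10 of 16 members kept their sign in every alternative, among them Fos X03347cds_g_at (1.80 to 2.42) and Egr1 AF023087_s_at (1.15 to 1.98) and M18416_at (0.91 to 1.38). Against contralateral glands 14 did, and for contralateral against unoperated and sham glands 5.

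Signs turned, for denervated against all control glands, without the 3 arrays that stand apart at Jun rc_AA944014_at (0.13) and Egr1 U75398_s_at (0.096). Leaving out each gland gave -0.62 to 0.25 at Jun rc_AA944014_at, -0.83 to 0.20 at Jun X17163cds_s_at, -0.43 to 0.023 at Junb rc_AA891041_at, -0.67 to 0.069 at Nr4a1 U17254_g_at and -0.11 to 0.83 at Fos X06769cds_g_at. Against contralateral glands, Jun X17163cds_s_at was 0.018 with array weights and 0.22 without the 3 arrays, and -0.56 to 0.47 leaving out each gland. Jun rc_AA944014_at was -0.31 with the replicate block, -0.25 with the sets as a block, and -0.48 to 0.78 leaving out each gland.

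For contralateral against unoperated and sham glands, Egr1 AF023087_s_at was 0.042 with median scaling, 0.087 with array weights, 0.43 with the replicate block and 0.041 without the 3 arrays. Atf3 M63282_at was 0.20 with quantile normalization, 0.22 with median scaling, 0.069 with array weights, 0.59 with the replicate block and 0.40 without the 3 arrays. With the replicate block Jun was 0.37 at rc_AA944014_at, 0.40 at rc_AI175959_at and 0.13 at X17163cds_s_at. With the sets as a block and without the 3 arrays, Jun rc_AA945867_at was -0.11 and -1.64, and Fos X03347cds_g_at -0.16 and -0.079. Fos X06769cds_at was 0.15 without the 3 arrays. Leaving out each gland gave -0.37 to 0.17 for Atf3 M63282_at, -1.02 to 0.17 and -0.21 to 2.65 for Egr1 AF023087_s_at and U75398_s_at, and -0.47 to 0.63 and -1.28 to 0.21 for Fos X03347cds_g_at and X06769cds_g_at. It gave -2.10 to 2.75 and -1.98 to 0.87 for Jun rc_AA945867_at and rc_AI175959_at, and -1.55 to 0.64 for Junb X54686cds_at.

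The titles number denervated and contralateral glands 1 to 3. Deviations from the group means correlated at 0.49, 0.04 and 0.16 between glands of the same number. Denervated 1 and 2 correlated best with the contralateral gland of their own number, and denervated 3 with contralateral 2 (0.18), nearly a tie. Denervated 1 and contralateral 1 both belong to the 3 arrays that stand apart, so these values cannot show whether the numbers are pairs. The labels do not say so, and the numbers were not taken as pairs. With the replicate block the counts of called probe sets stayed at 0 in all 3 comparisons, and Fos X03347cds_g_at had a limma adjusted p of 0.184 against all control glands.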
